A study of Mus musculus with 18 samples.

Results

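The 8 adipocyte genes examined in mouse RPE/choroid were Fabp4, Adipoq, Cidec, Plin1, Cfd, Lpl, Retn and Pparg. Their probe sets were taken where the array annotation gave 1 of these symbols alone. This found 10 of the 45101 probe sets, for 6 of the 8 genes: 4 for Fabp4, 2 for Lpl and 1 each for Adipoq, Cidec, Retn and Pparg. Plin1 and Cfd had no such probe set and were not analysed here. The study asked how intravitreal steroids change gene expression in the retinal pigment epithelium (RPE) and the underlying choroid. Male C57BL6/J mice, 2 months old by the labels, received a single injection of 1 μL into the vitreous of 10 μg dexamethasone (Dex), of 25 μg triamcinolone acetonide (TAA) or of balanced salt solution (BSS), the solvent of both steroids. RPE/choroid was collected at day 7 (1 week) or day 30 (1 month) postinjection and its RNA run on Affymetrix Mouse Genome 430 2.0 arrays, 3 arrays in each of the 6 groups and 18 in all. No group was left uninjected, so that all animals, controls included, had had an eye injection.

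Adipocytes store fat as triglyceride in a large droplet and release hormones called adipokines. PPARγ, the receptor encoded by Pparg, drives their formation and switches on carriers, droplet proteins and lipases. Fat lies behind and around the mouse eye, in the orbit, but no sample here was fat: every array held RPE/choroid, from eyes whose outer surface had been cleaned of muscle and connective tissue and from which sclera was later taken out. The adipocyte genes were therefore read as genes of fat cells in a tissue not named as fat. In such bulk RNA, fewer cells of a type and less RNA per cell cannot be told apart. By the study's methods, most of the choroid likely stayed attached to the sclera that was taken out.

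Values are deposited log2 expression, centred on 0, the median over all 18 arrays, for each probe set. A value of 1 is thus 2 times that median, and no level is given. Whether fat cell RNA was high or low in the tissue, and which gene was the more abundant, cannot be read from them, and the same holds for the markers of RPE, whose list mean ran from −0.25 to 0.21 over the arrays.

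Adipoq, Retn and Cidec, which moved together over the arrays as described below, are shown by the 250 bases before their annotated start, 5′ to 3′ (RefSeq, GRCm38.p6), to give the sequence context of that shared pattern. Adipoq lies at chr16:23146286-23146535, plus strand. Retn lies at chr8:3655520-3655769, plus strand. Cidec has a pair of annotated starts, at chr6:113435761-113436010, minus strand, and at chr6:113434765-113435014, minus strand. Capitals mark the CCAAT box, read on both strands.
Adipoq: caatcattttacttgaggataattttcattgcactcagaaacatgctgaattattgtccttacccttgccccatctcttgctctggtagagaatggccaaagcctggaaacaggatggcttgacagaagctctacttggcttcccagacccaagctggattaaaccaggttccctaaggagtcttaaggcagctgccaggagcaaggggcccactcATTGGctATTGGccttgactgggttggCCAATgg
Retn: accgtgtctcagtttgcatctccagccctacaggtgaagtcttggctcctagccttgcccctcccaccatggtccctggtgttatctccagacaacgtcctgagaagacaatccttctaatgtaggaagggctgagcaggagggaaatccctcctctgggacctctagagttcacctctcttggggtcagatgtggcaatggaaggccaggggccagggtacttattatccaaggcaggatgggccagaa
Cidec start 1: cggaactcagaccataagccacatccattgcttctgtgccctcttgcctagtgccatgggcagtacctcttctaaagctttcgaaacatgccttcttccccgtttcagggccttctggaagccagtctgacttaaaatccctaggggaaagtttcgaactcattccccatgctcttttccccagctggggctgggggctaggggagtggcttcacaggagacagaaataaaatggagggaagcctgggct
Cidec start 2: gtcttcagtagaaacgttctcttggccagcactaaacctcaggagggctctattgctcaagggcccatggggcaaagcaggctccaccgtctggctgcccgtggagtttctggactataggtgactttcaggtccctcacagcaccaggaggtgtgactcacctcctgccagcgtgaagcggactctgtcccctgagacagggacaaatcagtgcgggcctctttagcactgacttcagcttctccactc
The Adipoq window held 3 CCAAT matches, at bases −34 to −30 and −27 to −23 on the opposite strand and −7 to −3 on the gene's strand, counted back from the start. The Retn and Cidec windows held none. CCAAT was present in 33.8% of 32851 windows of this length, so that a match says little by itself. None of these 4 windows held the nuclear receptor hexamer AGGTCA (14% of windows), the glucocorticoid receptor hexamer TGTTCT (16.1%), TATAAA (12.4%) or the C/EBP letters TTGCNNCAA (1.74%), read on both strands. They held neither the full PPAR direct repeat (0.0335% of windows), which contains AGGTCA, nor the full glucocorticoid element (0.00913%), which contains TGTTCT. The windows thus share no motif that was searched, and nothing follows from this about the factors that act there. No window was matched for Fabp4 or Lpl.

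Over the 18 arrays, a few arrays carried most of the variation of these genes. Adipoq, which encodes the adipokine adiponectin, had the widest range of the 10 probe sets. At day 7 its centred log2 values were 4.36, 0.60 and 0.14 on the Dex arrays, −0.93, −0.14 and −0.47 on the TAA arrays, and 2.14, 3.85 and −0.36 on the BSS arrays. At day 30 they were −0.64, 1.73 and 1.04 with Dex, −0.67, −0.83 and −0.20 with TAA, and 1.77, 0.21 and −0.86 with BSS. All 6 TAA arrays lay below the median of 0, while Dex and BSS arrays lay on both sides of it, most of them above. The SD of Adipoq over the 18 arrays was 1.59, above that of 99.7% of all probe sets, where the median SD was 0.159.

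**Figure D1:**
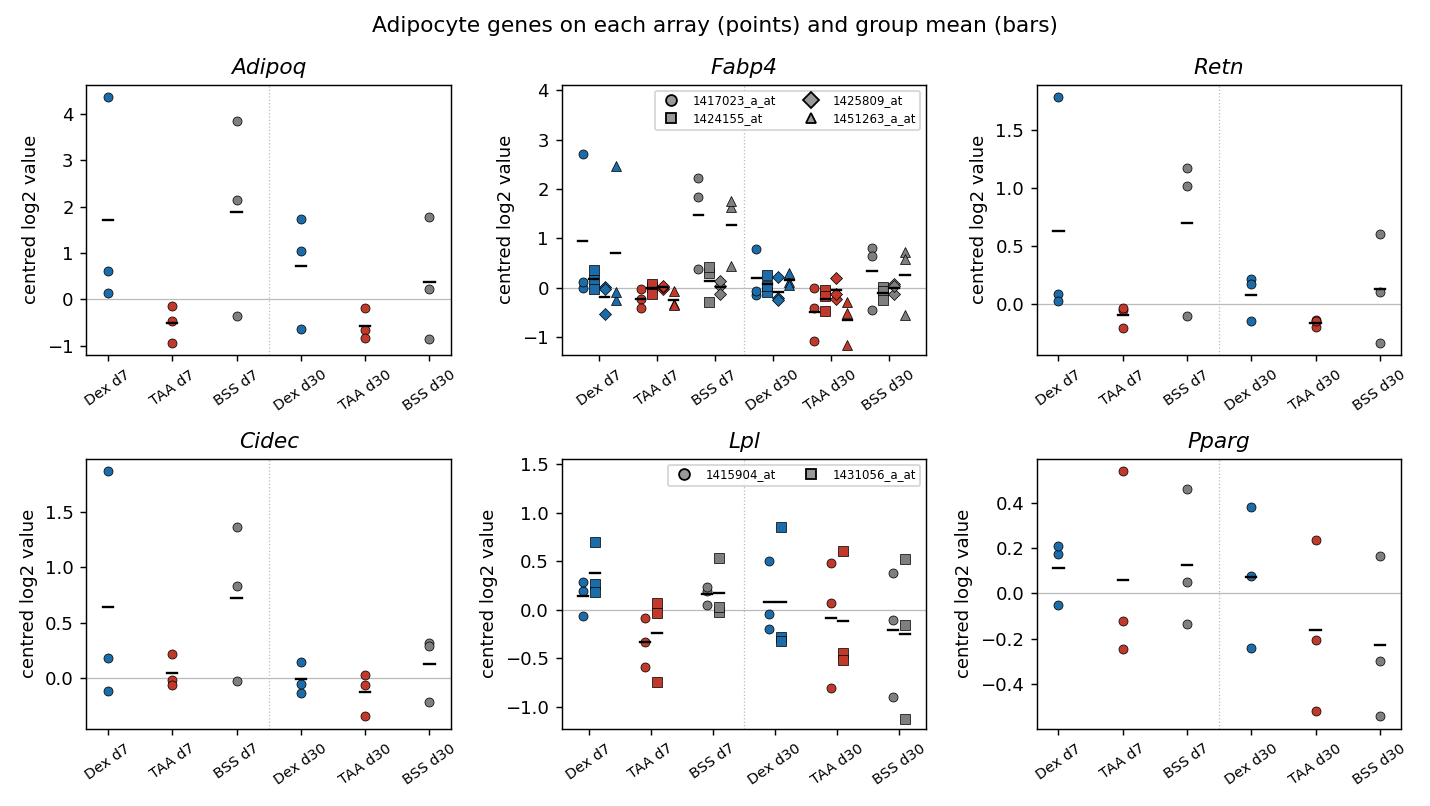
Centred log2 value (vertical axis) of each probe set of the 6 adipocyte genes on each array (points), with the group mean (bars), by treatment and day (d7, d30). Blue is Dex, red TAA and grey BSS, and marker shapes are probe sets. Adipoq, Fabp4 1417023_a_at and 1451263_a_at, Retn and Cidec are highest on 1 Dex array and 2 BSS arrays at day 7, with Adipoq at 4.36 on that Dex array.

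Retn encodes resistin, which mouse adipocytes secrete. Its day 7 values were 1.78, 0.09 and 0.03 with Dex, −0.05, −0.03 and −0.20 with TAA, and 1.02, 1.17 and −0.10 with BSS. At day 30 they were −0.15, 0.21 and 0.17 with Dex, −0.14, −0.20 and −0.15 with TAA, and 0.61, 0.11 and −0.33 with BSS. Retn was highest on Dex replicate 1 and BSS replicates 1 and 2 at day 7, and on BSS replicate 1 at day 30, where Adipoq was highest too. Adipoq was also high on Dex replicates 2 and 3 of day 30 (1.73 and 1.04), where Retn read 0.21 and 0.17.

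Cidec encodes a protein that sits on lipid droplets and lets them fuse into the single large droplet of white fat cells. At day 7 it read 1.87, −0.12 and 0.18 with Dex, −0.02, 0.22 and −0.07 with TAA, and 0.83, 1.36 and −0.03 with BSS. At day 30 its values lay from −0.14 to 0.15 with Dex, −0.35 to 0.02 with TAA, and −0.22 to 0.31 with BSS. Outside the 3 high arrays of day 7, Cidec stayed between −0.35 and 0.31.

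Fabp4 encodes the fatty acid carrier of adipocytes and macrophages, which also occurs in some endothelial cells. Probe set 1417023_a_at read 2.72, 0.00 and 0.12 with Dex, −0.03, −0.22 and −0.41 with TAA, and 1.84, 2.23 and 0.37 with BSS at day 7. Probe set 1451263_a_at read 2.48, −0.24 and −0.09 with Dex, −0.06, −0.32 and −0.34 with TAA, and 1.63, 1.77 and 0.44 with BSS. On both, the 3 TAA arrays lay below all 3 BSS arrays, while the Dex arrays overlapped the BSS arrays. At day 30, 1417023_a_at ran from −0.15 to 0.79 with Dex, −1.07 to 0.00 with TAA, and −0.45 to 0.81 with BSS. On 1451263_a_at the day 30 range was 0.06 to 0.31 with Dex, −1.16 to −0.30 with TAA, and −0.54 to 0.73 with BSS. At day 30 the TAA and BSS ranges overlapped on both probe sets. The other 2 Fabp4 probe sets had narrower ranges, 1424155_at between −0.47 and 0.41 and 1425809_at between −0.52 and 0.22. In this narrower range 1424155_at still followed Adipoq over the arrays (Pearson's r 0.81), more than 1425809_at did (0.25). The mean over the gene's 4 probe sets thus understates the pair that varied most, called the 2 varying probe sets below.

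Lpl encodes lipoprotein lipase, which frees fatty acids from circulating lipoproteins and is made by muscle and macrophages as well as fat. Probe set 1415904_at read 0.20, −0.07 and 0.29 with Dex, −0.59, −0.33 and −0.08 with TAA, and 0.20, 0.24 and 0.05 with BSS at day 7. Probe set 1431056_a_at read 0.27, 0.18 and 0.70 with Dex, −0.75, −0.03 and 0.07 with TAA, and −0.03, 0.53 and 0.03 with BSS. On the first, the TAA arrays lay below the BSS arrays, and on the second they overlapped. At day 30 the first ran from −0.20 to 0.50 with Dex, −0.80 to 0.48 with TAA, and −0.90 to 0.38 with BSS, with full overlap. High Adipoq went with either low or high Lpl: BSS replicate 1 at day 30, at 1.77 for Adipoq, gave the lowest value of both Lpl probe sets (−0.90 and −1.12), and Dex replicate 2 at day 30, at 1.73, the highest of both (0.50 and 0.85).

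Pparg, the receptor gene itself, had the lowest SD of the 4 genes with 1 probe set (0.31 over the 18 arrays). Its day 7 values were 0.17, −0.05 and 0.21 with Dex, −0.24, 0.54 and −0.12 with TAA, and −0.14, 0.46 and 0.05 with BSS. At day 30 they were 0.08, 0.38 and −0.24 with Dex, −0.21, −0.52 and 0.24 with TAA, and −0.30, 0.16 and −0.54 with BSS. All groups overlapped, and the highest Pparg value lay on a TAA array.

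The 6 genes thus fell into a set of 4 that varied together and a pair that did not follow it. Over the 18 arrays, Pearson's r was 0.95 between Adipoq and Retn, 0.95 between Cidec and Retn, 0.98 between the 2 varying Fabp4 probe sets, and 0.93 between Fabp4 1417023_a_at and Adipoq. Between Lpl 1415904_at and Adipoq it was 0.16, and between Pparg and Adipoq 0.39. All values come from the same arrays and normalization, 3 arrays of day 7 weigh heavily in them, and no p is given. Without the 2 arrays farthest from the median of the mean over the member genes, Dex replicate 1 and BSS replicate 2 at day 7, r between Adipoq and Retn was 0.89, between Adipoq and Cidec 0.67 and between Adipoq and Pparg 0.19. With each group's own mean taken off first, r between Adipoq and Retn was 0.95, so that both genes also varied together within groups. The pooled SD within groups was 1.49 for Adipoq and 0.54 for Retn, beside 1.59 and 0.57 over the 18 arrays.

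The mean over the 6 genes on an array puts this in 1 value. At day 7 it was 1.64, 0.09 and 0.15 with Dex, −0.32, 0.05 and −0.18 with TAA, and 0.82, 1.40 and −0.05 with BSS. At day 30 it was −0.18, 0.56 and 0.13 with Dex, −0.12, −0.41 and −0.21 with TAA, and 0.30, 0.15 and −0.30 with BSS. The Dex arrays of day 7 alone spanned 0.09 to 1.64, and the BSS arrays −0.05 to 1.40.

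TAA at 1 week gave the lowest values relative to BSS. All 6 genes were on the lower side, by a mean of 0.871 and a median of 0.734 on the log2 scale, beside a median of about 0 over all 18194 genes, of which 50.2% were on the lower side. Adipoq averaged −0.51 ± 0.40 with TAA and 1.88 ± 2.12 with BSS (SD, n = 3 each), a log2 fold change of −2.39 (SE 1.08, 95% interval −4.69 to −0.09). Fabp4 1417023_a_at averaged −0.22 ± 0.19 with TAA and 1.48 ± 0.98 with BSS, a log2 fold change of −1.70 (SE 0.62, 95% interval −3.02 to −0.38). Fabp4 1451263_a_at had a log2 fold change of −1.52 (SE 0.56). These 3 met the study's threshold, a change of at least 1.5-fold at a raw p not above 0.05, in limma, a linear model that moderates each probe set's spread with that of all others. All 3 were lower, as were 0.326% of all probe sets at this threshold, and 0.452% passed in either direction. After Benjamini-Hochberg adjustment over all probe sets by limma, none of the 10 was below 0.05 (adjusted p = 0.996 for these 3), and 0.00222% of all probe sets were.

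The other 7 probe sets did not meet the threshold. Their log2 fold changes were −0.79 for Retn (SE 0.39), −0.68 for Cidec (SE 0.40), −0.50 and −0.41 for the Lpl probe sets 1415904_at (SE 0.31) and 1431056_a_at (SE 0.41), and −0.07 for Pparg (SE 0.25). The 2 remaining Fabp4 probe sets stood at −0.16 and −0.01, with upper 95% limits of 0.20 and 0.32. Of the 10 probe sets, 3 had TAA arrays wholly below the BSS arrays, the 2 varying Fabp4 probe sets and Lpl 1415904_at, against 6.26% of all probe sets. Adipoq was not among them, because BSS replicate 3, at −0.36, lay within the TAA range.

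The TAA values of day 7 rest on the BSS arrays they were set against. Without BSS replicate 2, the log2 fold change of Adipoq was −1.40, and without BSS replicate 3 it was −3.51. Without either BSS replicate 1 or BSS replicate 2, 0 of the 10 probe sets met the study's threshold, which 0.328% and 1.41% of all probe sets met in those fits. Without BSS replicate 3, 5 of the 10 did, beside 0.501% of all. Without Dex replicate 1, which enters only through the shared spread, 5 did as well, beside 0.461% of all. The direction of Adipoq and of both varying Fabp4 probe sets was negative each time, while Pparg and Fabp4 1425809_at changed sign. Adipoq itself also missed the threshold without any 1 of the 3 TAA arrays (−2.18 to −2.58), without TAA replicate 1 of day 30, which enters only through the spread (−2.39), with array weights (−1.56), with a robust prior and with the methods' unpaired test (both −2.39).

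**Figure D2:**
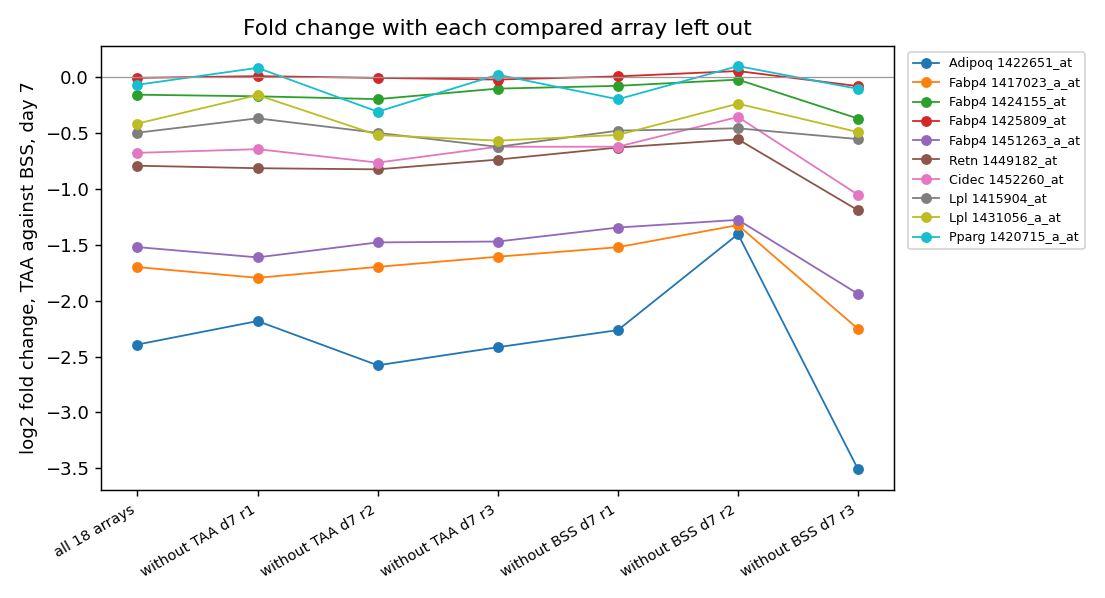
log2 fold change of TAA against BSS at day 7 (vertical axis) for the 10 probe sets, from all 18 arrays (left) and with each of the 6 compared arrays left out in turn (horizontal axis, r1 to r3 being replicates). Adipoq runs from −1.40 without BSS replicate 2 to −3.51 without BSS replicate 3, and Pparg lies near 0 throughout.

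Dex at 1 week gave no comparable difference. Adipoq averaged 1.70 ± 2.31 with Dex and 1.88 ± 2.12 with BSS (SD, n = 3 each), a log2 fold change of −0.18 (95% interval −2.48 to 2.12). Fabp4 1417023_a_at had −0.53 (SE 0.62), Retn −0.06 (SE 0.39), Cidec −0.08 (SE 0.40) and Pparg −0.02 (SE 0.25). None of the 10 probe sets met the study's threshold, which 0.104% of all probe sets met, and none had an adjusted p below 0.05 (background 0%). All 10 overlapped between Dex and BSS, where 8.95% of all probe sets did not. The interval of Adipoq was wide in both directions. Without Dex replicate 1, the array with the highest value of Adipoq, Fabp4, Retn and Cidec, the mean over the 6 genes was −0.597 instead of −0.0925, and 3 probe sets met the threshold, beside 0.346% of all probe sets in that fit.

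**Figure D3:**
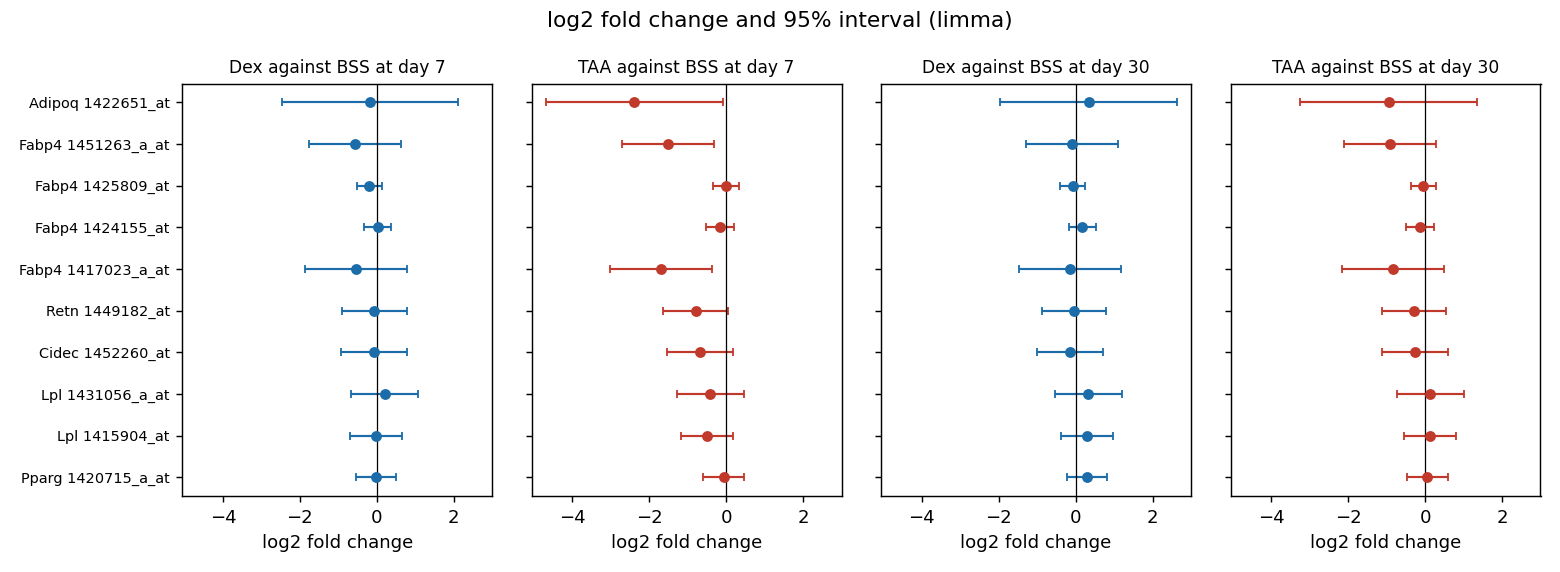
log2 fold change with its 95% interval (horizontal axis) for the 10 probe sets (rows) for each steroid against BSS at each day, Dex in blue and TAA in red. The intervals of Adipoq and of Fabp4 1417023_a_at and 1451263_a_at leave out 0 for TAA at day 7, and all other intervals hold 0.

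At 1 month, neither steroid moved any of the 10 probe sets past the study's threshold, and all 10 overlapped with BSS in both comparisons. With Dex, 0.477% of all probe sets met the threshold and 4.84% did not overlap, and with TAA 0.175% and 5.97% did. Adipoq averaged 0.71 ± 1.22 with Dex and 0.38 ± 1.32 with BSS (SD, n = 3 each), a log2 fold change of 0.34 (SE 1.08). For Dex, Lpl 1415904_at had 0.30 (SE 0.31) and Pparg 0.30 (SE 0.25). Adipoq averaged −0.57 ± 0.33 with TAA, a log2 fold change of −0.94 (SE 1.08, 95% interval −3.24 to 1.35), against the same BSS arrays, and the Fabp4 probe sets 1417023_a_at and 1451263_a_at had −0.83 (SE 0.62) and −0.91 (SE 0.56). Adjusted p-values by limma stayed above 0.05 for every member, as for all probe sets in both comparisons (0%). Without BSS replicate 1 of day 30, Adipoq had 1.04 for Dex and −0.25 for TAA, and without BSS replicate 3 it had −0.28 and −1.56. The mean over the 6 genes was 0.121 for Dex and −0.295 for TAA. On the lower side were 3 and 4 of the 6 genes, beside 46.3% and 45.7% of all genes.

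Whether the TAA difference itself changed between the days was tested as an interaction. For Adipoq the TAA effect at day 30 minus that at day 7 was 1.45 (SE 1.53, 95% interval −1.80 to 4.70), and for Fabp4 1417023_a_at 0.87 (SE 0.88). For Dex the corresponding values were 0.52 (SE 1.53) and 0.39 (SE 0.88). Single arrays moved these values: without BSS replicate 2 of day 7, Adipoq had 0.46 for TAA and −0.47 for Dex, and without Dex replicate 1 of day 7 it had 1.85 for Dex. For Fabp4 1417023_a_at, leaving out 1 array at a time gave 0.48 to 1.43 for TAA and −0.08 to 1.28 for Dex. None of the 10 probe sets met the threshold in either test, which 0.701% of all probe sets met for TAA and 0.807% for Dex, so that a difference between the days in the effect was not shown for any member. The 2 steroids were given at different doses, so TAA against Dex compares agent and dose at once. At day 7 Adipoq had −2.21 (SE 1.08) and Retn −0.73 (SE 0.39) with TAA relative to Dex, and at day 30 −1.28 (SE 1.08) and −0.24 (SE 0.39). Without Dex replicate 1 of day 7, the day 7 values were −0.88 for Adipoq and −0.16 for Retn, and without Dex replicate 2 of day 30, those of day 30 were −0.77 and −0.17. None of the 10 met the threshold at day 7 (0.271% of all probe sets) or day 30 (0.115%).

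Over the 3 treatments together, all 6 genes were on the lower side at day 30 relative to day 7, where 57.3% of all genes were. The log2 fold change of day 30 against day 7 was −0.85 for Adipoq (SE 0.62), −0.48 for Cidec (SE 0.23), −0.40 for Retn (SE 0.23) and −0.72 and −0.67 for Fabp4 1417023_a_at and 1451263_a_at (SE 0.36 and 0.32). Without Dex replicate 1 of day 7 they were −0.41 for Adipoq, −0.27 for Cidec, −0.20 for Retn and −0.43 and −0.37 for the 2 Fabp4 probe sets. None met the threshold (0.958% of all probe sets did) and none was called after adjustment (0.399%). The smallest unadjusted p by limma was 0.058, for Fabp4 1451263_a_at. Apart from TAA against BSS at day 7, no comparison gave any of the 10 probe sets an unadjusted p of 0.05 or less.

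Among 12 further genes of adipocyte transcription and adipokines, 13 of fat synthesis, 8 of fat uptake and glucose entry, 6 measured genes of lipolysis (of 7) and 7 of brown fat, 0 met the study's threshold in any of the 4 steroid-to-BSS comparisons. Over all genes 0.0989% met it for Dex and 0.583% for TAA at day 7, and 0.44% and 0.176% at day 30. For TAA at day 7 the medians of these lists lay between −0.079 (fat synthesis) and 0.041 (brown fat). Adig, a small adipocyte protein whose name is short for adipogenin, had a log2 fold change of −0.75 (SE 0.37), and Rbp4, the retinol carrier that RPE and fat both make, 0.95 (SE 0.58). Cebpa, which acts with PPARγ in adipocyte formation, had −0.12 (SE 0.17), and its relatives Cebpb and Cebpd 0.06 (SE 0.12) and 0.46 (SE 0.19). The study, by its own test, listed a Cebpd probe set as higher with TAA at 1 week. Fasn, which builds fatty acids, had −0.08 (SE 0.17), Cd36, a fatty acid receptor, −0.20 (SE 0.30), and Lipe, hormone-sensitive lipase, 0.00 (SE 0.11). Ucp1, the heat-producing protein of brown fat, had 0.05 (SE 0.10).

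Relatives of the members in their own gene families were measured for 15 of 16. For TAA at day 7, 2 of the 15 met the threshold, both lower, beside 0.583% of all genes in either direction. They were Retnla, a resistin family member known from alternatively activated macrophages (−1.19, SE 0.35), and Fabp7, the fatty acid carrier of glia (−0.89, SE 0.35). Retnla read −0.91, −0.50 and −1.24 with TAA and 0.03, 0.85 and 0.05 with BSS, without overlap. Of all probe sets, 6.26% had TAA arrays wholly below the BSS arrays. Plin2, a droplet protein of most cells, had 0.26 (SE 0.17), and Plin4, a droplet protein of adipocytes, 0.17 (SE 0.16). In the other 3 comparisons with BSS 0 of the 15 met the threshold, beside 0.0989% to 0.44% of all genes.

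**Figure D4:**
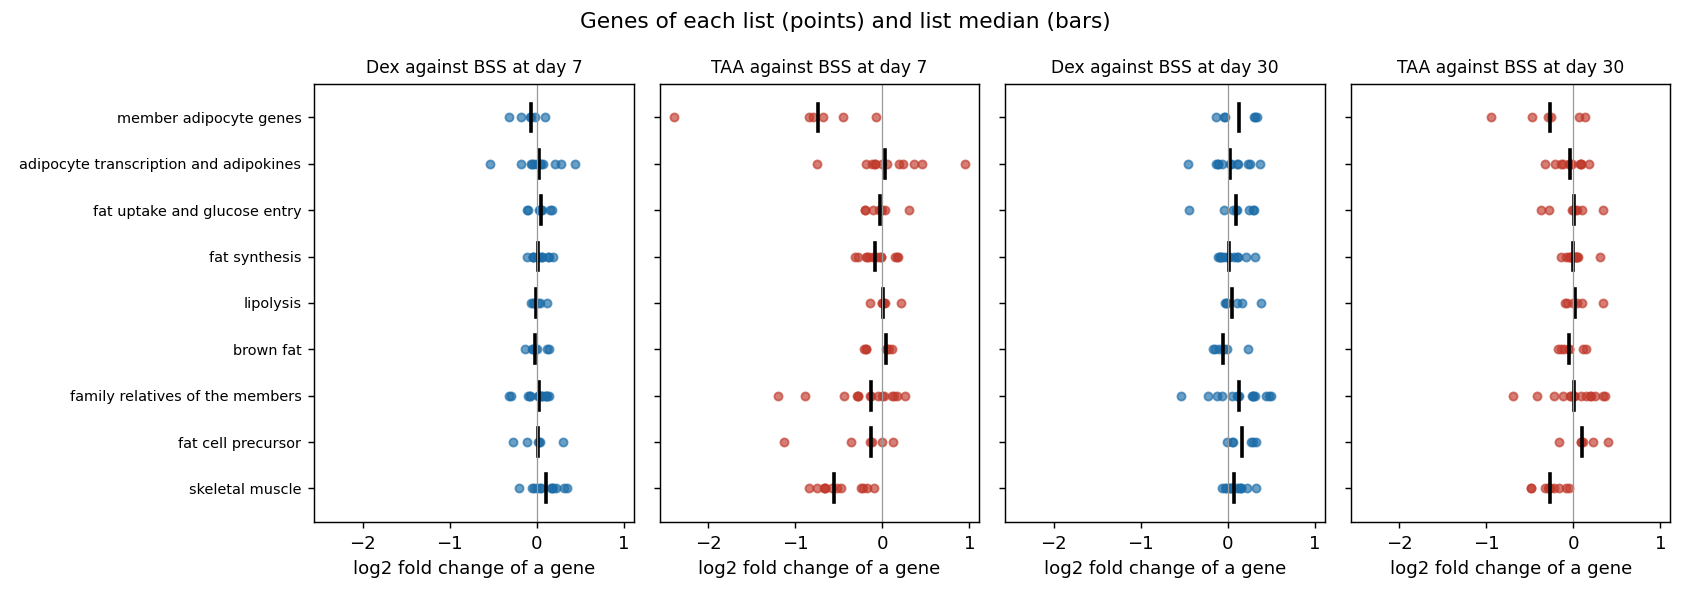
log2 fold change of each gene (points, horizontal axis) and the median (bars) for the adipocyte genes, 7 further lists of fat biology and skeletal muscle (rows) for each steroid against BSS at each day. For TAA at day 7 the median is −0.734 for the member adipocyte genes and −0.552 for skeletal muscle, and those of the 5 lists of adipocyte transcription, uptake, synthesis, lipolysis and brown fat lie near 0.

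Markers of other cell types, in and around the eye, were read on the same arrays. Not all of them followed the adipocyte genes from array to array. On Dex replicate 1 of day 7, where the mean over the 6 member genes was 1.64, the surface epithelium mean was −2.06 and the RPE mean −0.02. Other list means were above 0 on that array: 1.82 for rod photoreceptor, 1.32 for lens, 0.53 for fibroblast, 0.35 for skeletal muscle and 0.35 for endothelium. Over all genes, 50.2% were on the lower side for TAA at day 7 and 0.583% met the study's threshold. Of 12 skeletal muscle genes, 12 were on the lower side for TAA at day 7 and 5 met the threshold. Among these 5 were Pvalb, a calcium buffer of fast fibres (−0.84, SE 0.22), and the fast troponins Tnnt3 (−0.76, SE 0.25), Tnnc2 (−0.67, SE 0.16) and Tnni2 (−0.66, SE 0.20). The mean over the 12 ran from −0.70 to −0.15 with TAA and from −0.22 to 0.21 with BSS at day 7. Of 8 fibroblast genes, 2 met it, Dpt (−1.53, SE 0.32) and Sfrp4 (−1.23, SE 0.29), both of connective tissue, with list means from −0.74 to 0.10 with TAA and 0.12 to 0.60 with BSS. Of 6 measured genes of fat cell precursors, 1 met it, Pi16 (−1.12, SE 0.24). Of 7 measured lens genes, 4 met it, all lower, and of 8 surface epithelium genes 0 did, with a median of −1.69. Of the 8 RPE genes 0 met it, with a median of 0.103, and likewise 0 of 8 macrophage and 0 of 8 endothelium genes. The part of these tissues in the values of the adipocyte genes was not tested.

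The 10 genes whose pattern was most like the mean of the 6 genes over the 18 arrays, by Pearson's r, were Pck1 (0.90), Cyp2e1 (0.87), H2-Q10 (0.86), Adig (0.84), Hp (0.82), Scd1 (0.82), Orm1 (0.82), Tmem45b (0.81), Ifi27l2a (0.81) and Ces1f (0.80). Of the members themselves, Adipoq, Retn, Fabp4 and Cidec took the first 4 ranks among all 18194 genes, while Pparg ranked 430 and Lpl 1641, with r of 0.47 and 0.32 to a mean that includes them. Pck1, the enzyme that supplies glycerol phosphate for triglyceride in fat cells, Adig, and Scd1, which desaturates fatty acids, were also members of the lists above. Cyp2e1 is a cytochrome P450, and Hp and Orm1 encode plasma proteins that liver and fat make. Without the 2 farthest arrays r was 0.71 for Pck1, 0.59 for Cyp2e1, 0.54 for Hp, 0.47 for Ces1f and 0.78 for H2-Q10.

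The same arrays were high for these genes. Cyp2e1 read 1.69, 0.01 and −0.12 with Dex, −0.32, −0.36 and 0.07 with TAA, and 1.05, 1.86 and 0.35 with BSS at day 7. Adig read 1.17, −0.41 and −0.29 with Dex, 0.02, −0.07 and −0.14 with TAA, and 0.87, 1.21 and −0.02 with BSS. At day 7, both had their 3 highest values on Dex replicate 1 and BSS replicates 1 and 2. For TAA against BSS at day 7, Cyp2e1 had a log2 fold change of −1.29 (SE 0.42). Because these genes were chosen for their likeness to the members, this value is a description and adds no support.

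**Figure D5:**
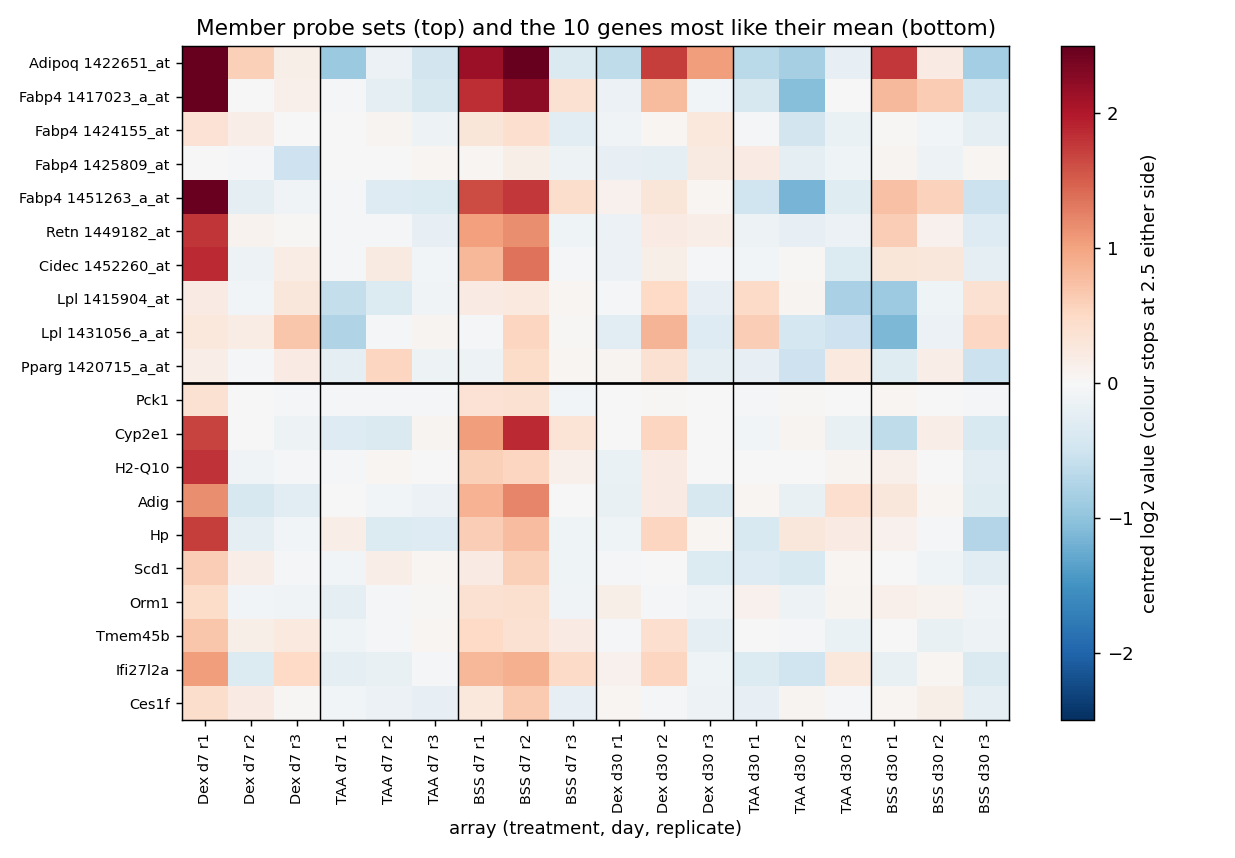
Centred log2 values of the 10 probe sets (rows above the black line) and of the 10 genes most like their mean (rows below) on each of the 18 arrays (columns, by treatment, day and replicate), red above and blue below the median of a row. Dex replicate 1 and BSS replicates 1 and 2 of day 7 are red for Adipoq, Fabp4 1417023_a_at and 1451263_a_at, Retn, Cidec and the 10 genes below the line, and Lpl and Pparg do not share the pattern.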

How the data were processed

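RNA of RPE/choroid was labelled (the labels and the methods name different kits) and run on 18 arrays. The deposited log2 values were made by the authors with RMA in GeneSpring and set to the median of all samples as baseline. The largest median of a probe set was 5e-07, so that no filter on level was possible. Neither tissue level nor array intensity can be read from them, and the number of arrays limits the precision. Of 45101 probe sets, 34958 carried 1 gene symbol, 932 several and 9211 none (unnamed here). By gene identifier, 34754 matched RefSeq genes of GRCm38.p6. A gene's value was the mean of its probe sets.

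Groups came from the sample titles and labels. The test was that of limma 3.58.1 (R 4.3.3), with 1 mean per group over all 18 arrays, two-sided, adjusted by Benjamini-Hochberg over all probe sets (over all genes for gene lists). Calls were an adjusted p under 0.05, or the study's threshold (unadjusted p of 0.05 or less and fold of 1.5 or more). Of the 4 animals per group, the 3 with the best RNA were hybridised, so that p-values measure the spread between these animals alone. An exact permutation test of 3 against 3 cannot go below 0.1 and was not used. Same-numbered arrays of different treatments did not deviate together, so no block was used.

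The members and the 17 other gene lists were chosen with earlier results of these data known. Named genes were the members, up to 4 genes of each list with the largest change among those at the study's threshold in a comparison with BSS (the first 3 in list order where none met it), and the 10 genes most like the member mean. Rbp4, Plin2 and Plin4 were chosen after their values were seen. Promoter windows were searched for short motifs in Python 3.11.15. Alternatives were array weights, a robust prior, the compared arrays alone, the methods' t-test, quantile normalization, array medians set to 0, a filter on low SD, the probe set of largest SD per gene, a replicate block and leaving out each array.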

Additional observations from a re-analysis of the deposited data

How the results depend on the processing

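Under every alternative, no member probe set had an adjusted p below 0.05 in any comparison by limma or the methods' t-test. None of the mean shifts of the 6 genes moved by more than the spread between replicates, a pooled SD of 0.514. That SD includes the high arrays of day 7, so it is a wide limit and does not show that the shifts were stable. The Dex shift of day 7 depended on Dex replicate 1, as given above. For TAA against BSS at day 7, 3 of 10 probe sets met the study's threshold, beside 0.452% of all in the main fit. The count was 4 with the replicate block and 2 of the 6 genes with the probe set of largest SD per gene. Where no probe set met it, some alternatives gave calls. TAA against BSS at day 30 had 1 with array weights and 1 with only the compared arrays, TAA against Dex at day 7 had 1 with each of these, and TAA against Dex at day 30 had 1 with only the compared arrays and 1 with the methods' t-test. Day 30 against day 7 had 2 with the replicate block, and the TAA effect at day 30 minus day 7 had 2 with array weights. The shares of all probe sets in these alternatives are not given here, so nothing is read from these counts. Leaving out 1 array at a time gave 0 to 5 member probe sets for TAA against BSS at day 7 (0.328% to 1.41% of all probe sets). TAA against Dex at day 7 had 0 to 5 as well (0.257% to 0.483%). For Dex against BSS at day 7 and for day 30 against day 7 the count was 0 to 3 (0.0887% to 0.452% and 0.488% to 2.12%). Leaving arrays out gave 0 to 1 for TAA against BSS at day 30, for TAA against Dex at day 30 and for the effect of each steroid at day 30 minus day 7. It gave 0 for Dex against BSS at day 30. In the fits of these 5 comparisons 0.0953% to 4.68% of all probe sets met the threshold. TAA against Dex at day 7 had 5 without Dex replicate 2 of that day (0.483% of all probe sets) and 4 without Dex replicate 3 (0.257%). Day 30 against day 7 had 3 without BSS replicate 3 (0.849%) or Dex replicate 2 (1.03%) of day 7. The cause of these changes was not tested. Correlations of same-numbered arrays ran from −0.694 to 0.246 over 18 pairs, so that the numbers do not pair the animals.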
